A study of Mus musculus with 22 samples.

Results

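The comparison described here set whole brain of mouse embryos labelled Agtr2 knockout against whole brain of control embryos at embryonic day 15 (E15). Its members were the arrays whose source label names E15 knockout brain, 14 of the 22 arrays of the series. Each array carried the RNA of 1 knockout and 1 control embryo, one labelled with the dye Cy3 and the other with Cy5, and the design text counts 8 knockout and 6 control embryos as biological replicates. The other 8 arrays compared 4 knockout brains with controls at postnatal day 1 (P1) and are used below for genes chosen at E15 and for the difference between the ages. The labels give no strain, sex, litter or method of gene targeting, and they do not describe the genotype of the controls. Frozen brain slices were the source of the RNA, so every value is an average over all cells that the slices held, and fewer cells of a type cannot be told apart from less RNA per cell.

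Angiotensin II, a peptide hormone, acts through type 1 and type 2 receptors, and Agtr2 encodes the type 2 receptor. The type 1 receptor carries the classical actions of the hormone on blood pressure, whereas the type 2 receptor is most abundant in the fetus, where connective tissue, muscle and some brain nuclei express it. It signals through inhibitory G proteins and protein phosphatases, has been linked to neurite outgrowth in cell culture, and lies on the X chromosome, where changes in it have been described in families with intellectual disability.

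Values are log2 of knockout over control with the sign turned by dye, so 1 unit is a 2-fold difference. The arrays of a knockout embryo were averaged to 1 replicate value, and n = 8 in each E15 mean. Replicates 3 and 4 had 1 array each, and their values were corrected by the average dye effect seen in the dye-swapped replicates. Replicates 1, 4 and 7 were linked through shared controls, as were 2, 3 and 8, and this sharing entered the fit as a random block. Tested features, meaning genes or unnamed probes well above background in at least 50% of E15 channels, numbered 24145, of which 18935 carried a gene name.

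The E15 samples differed most in tissue that surrounds the brain. Between 74.9% and 89.3% of spots on an array were well above background. Before any comparison of groups, 2 animals stood apart: control 1 and knockout 8 were rich in RNA of connective tissue and skeletal muscle. Col1a1, the main collagen of fibroblasts and bone, read 24370 signal units in control 1, 10590 in control 2 and 581 to 2319 in the other 4 controls. In knockout 8 it read 20460, against 597 to 1670 in the other 7 knockouts. Both groups therefore held an animal at the top of the range, and the groups overlapped.

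Muscle genes followed the same animals. Myl1, a fast-muscle myosin light chain, read 12750 in control 1 and 64.4 to 1007 in the other controls. Its highest knockout value was 5355 in knockout 8, and the others read 65.3 to 1165. Over the 20 skeletal muscle genes measured, the median level ran from 83.0 to 2666 in controls and from 87.8 to 837 in knockouts.

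**Figure D1:**
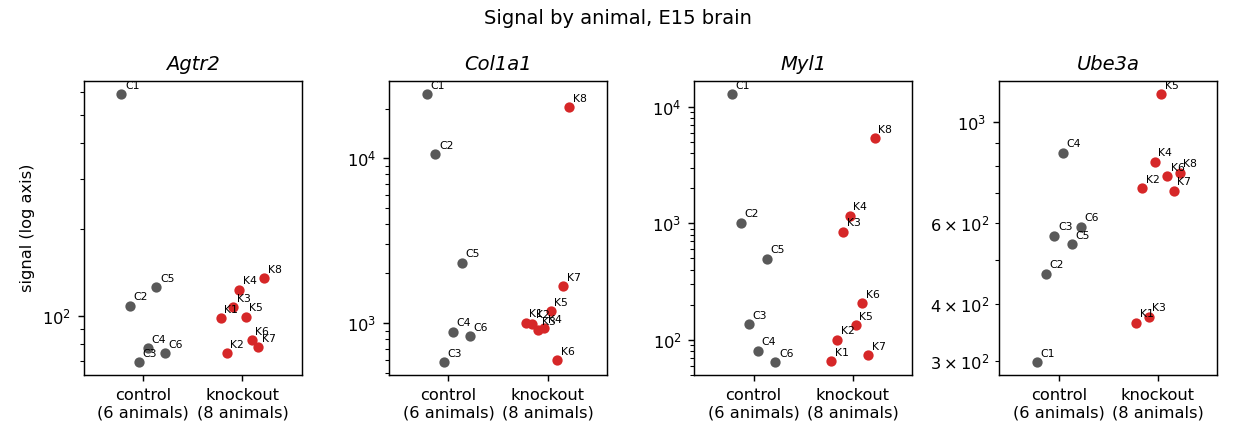
Signal of 4 genes in each E15 animal, on log axes. The 6 controls (C1 to C6) are grey and the 8 knockouts (K1 to K8) red. Each point is an animal, corrected for dye but not for differences between arrays. Col1a1 and Myl1 are highest in control 1 and knockout 8, Agtr2 is highest in control 1 at 589, and Ube3a overlaps between the groups.

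The 10 named genes with the largest standard deviation (SD) over replicates were Col1a1, Col1a2, Myl1, Postn, Mylpf, Myh3, Col16a1, Tnnt1, Ibsp and Apobec2, all of connective tissue, bone or muscle. Col1a1 had an SD of 3.35, with values from -5.48 to 5.33 and a median of -1.06. The median SD over all features was 0.187. The median of 21 meningeal and fibroblast genes served as a measure of surrounding tissue in each replicate. It was -0.84, -0.27, -1.002, -2.09, 0.08, -0.63, 0.33 and 2.38 in replicates 1 to 8, lowest in replicate 4, whose only partner was control 1, and highest in replicate 8. Of the variance over all features, 43.98% was linear in that median. Features with a large SD weigh most in this share, and the 21 genes themselves are included. The squared correlation with the median exceeded 0.8 for 1094 features (4.53%), and the middle feature had 0.139. A second fit held this tissue median as a covariate, so that its intercept is the change at equal surrounding tissue.

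**Figure D2:**
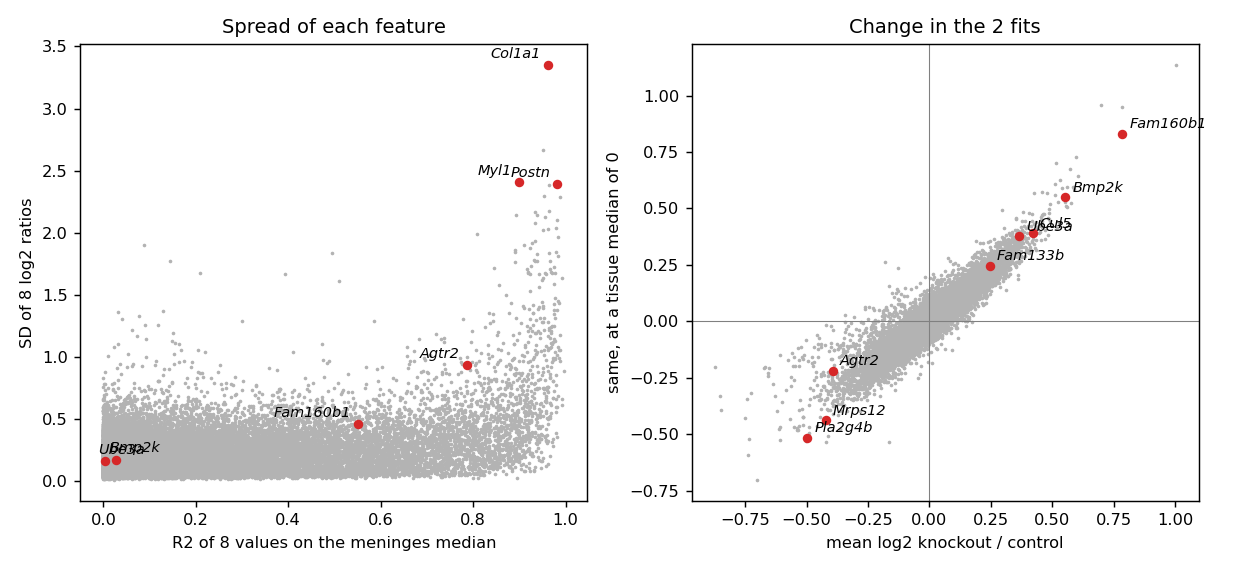
Left, the SD of the 8 log2 ratios of each feature against the squared correlation (R2) of its values with the tissue median; right, the mean log2 ratio against the intercept at a tissue median of 0. Collagen and muscle genes combine a large SD with a high R2, whereas Bmp2k and Ube3a lie at R2 below 0.03 and keep their change in both fits.

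Agtr2 itself did not differ detectably. Its signal was 589 units in control 1, 69.3 to 126 in the other 5 controls and 74.2 to 135 in the 8 knockouts, so the groups overlapped apart from control 1. Replicate values ran from -2.10 to 0.87 with a median of -0.24, and 6 of 8 were below 0. The mean change was -0.39 (SE 0.30, SD 0.93; limma, adjusted p = 0.788). Agtr2 values followed the tissue median with an R2 of 0.786, and the change at equal tissue was -0.22 (SE 0.17). Without the arrays of control 1 the change was 0.06, and without replicate 8 as well it was -0.08. Replicates 1 to 4, all scanned on 1 day, gave -0.96, and replicates 5 to 8, scanned on 2 further days, gave 0.16. The single Agtr2 probe was well above background on 13 of 14 arrays in either channel. Whether it lies in the removed part of the gene is not stated in the sources used here, so it does not check the knockout labels.

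No feature passed an adjusted p of 0.05, of 24145 tested with limma and Benjamini-Hochberg adjustment (0%; lowest adjusted p = 0.245). At an unadjusted p under 0.05, 991 features (4.10%) were higher and 636 (2.63%) lower in knockout, together 1627. At equal surrounding tissue 0 features were called (0%; lowest adjusted p = 0.948), with 843 (3.49%) higher and 377 (1.56%) lower at an unadjusted p under 0.05. The differences were also small with the offset of 50 added to the signals, which draws ratios of dim probes toward 0. On this scale the 95% interval excluded a 2-fold difference in either direction for 99.0% of features. With the offset a single feature had a mean change above 1, Prdm16, a zinc-finger transcription factor of neural stem cells. It was singled out after its values were seen. Prdm16 read 73.6 to 227 units in controls and 84.5 to 479 in knockouts, with 5 of 8 knockouts above the highest control. Differences between arrays enter such counts, here and below, and the share of all features that separate this far was not computed. Its change was 1.00 (SE 0.26, SD 0.77, 7 of 8 above 0, adjusted p = 0.733). Values ran from -0.53 in replicate 1 to 1.90 in replicate 8. At P1 the Prdm16 mean was -0.06 (SE 0.23), with 1 of 4 replicates above 0.

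Because no gene passed, the genes described next were selected as those that pointed one way in all 8 replicates and kept their sign at an unadjusted p under 0.01 at equal surrounding tissue. Values above 0 in 8 of 8 replicates were found for 169 of 23997 complete features (0.704%), and values below 0 in 8 of 8 for 155 (0.646%). The second condition left 50 named genes higher and 18 lower in knockout. The 10 with the smallest p in each direction follow. Their E15 values chose them and are a description. Their other probes were read on the same arrays and animals, whereas their P1 values come from other animals.

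**Figure D3:**
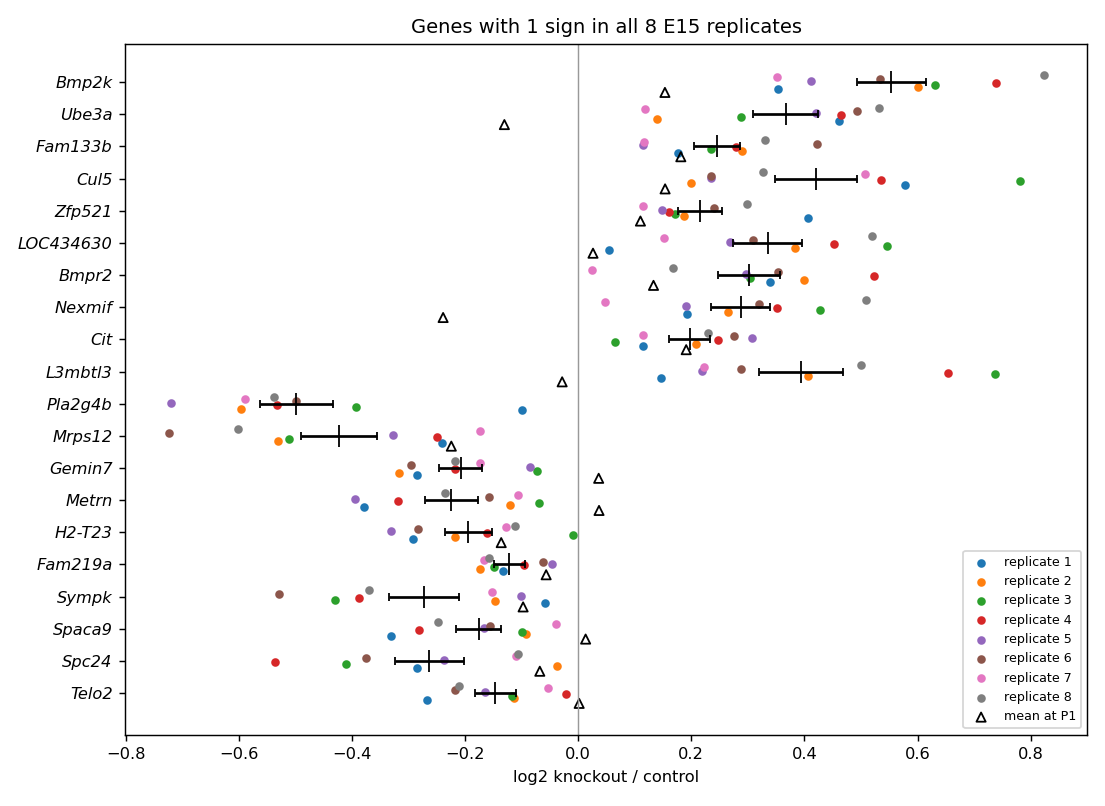
Log2 knockout over control of the 10 higher and 10 lower genes, with a coloured point for each E15 replicate, the mean and its SE in black, and the P1 mean as an open triangle (none for Pla2g4b). All E15 points of a gene lie on 1 side of 0, while P1 means lie closer to 0 for most genes and 7 lie on the opposite side, farthest for Ube3a and Nexmif.

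Ube3a, second by p among the higher genes, encodes the ubiquitin ligase whose maternal copy is lost in Angelman syndrome. Its 8 values ran from 0.12 to 0.53 with a median of 0.44, and its change was 0.37 (SE 0.06, 1.29-fold, adjusted p = 0.733). The animal levels overlapped, at 299 to 856 units in controls and 364 to 1146 in knockouts, but differences between arrays also enter them. Knockout 3 read 375 and its only partner, control 2, read 466, whereas replicate 3 gave 0.29. The agreement of the replicates is therefore between partners on an array, and these levels do not show whether the groups differ. A further Ube3a probe gave 0.27 and lay above 0 in 8 of 8 replicates, and another, dimmer probe gave 0.12 with 5 of 8 above 0. Without the arrays of control 1 the Ube3a change was 0.23. Cul5, the scaffold of a cullin ubiquitin ligase that limits Reelin signalling in migrating neurons, ran from 0.20 to 0.78 with a mean of 0.42 (SE 0.07, adjusted p = 0.733). The other 3 Cul5 probes gave 0.09 to 0.17, with 5 or 6 of 8 replicates above 0.

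The gene with the smallest p was Bmp2k, which encodes a protein kinase named for its induction by a bone morphogenetic protein (BMP). Its values ran from 0.35 to 0.82 with a median of 0.57, and its mean was 0.55 (SE 0.06, 1.47-fold, adjusted p = 0.245). Bmp2k read 63.3 to 114 units in controls and 92.3 to 152 in knockouts, and 4 of 8 knockouts exceeded the highest control. The probe was dim, and the scanner's own processed ratios, which add no offset, gave 1.48 with an adjusted p of 0.0314, in a range from 0.0313 to 1 over 29 alternative settings. The other 2 Bmp2k probes, dimmer still, gave 0.06 and -0.00, so the change rests on 1 probe. Bmpr2, the type II receptor for BMP ligands, ran from 0.02 to 0.52 with a mean of 0.30 (SE 0.05, adjusted p = 0.733). Its other probe gave 0.01, and without the arrays of control 1 the change was 0.11.

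The remaining higher genes had several roles. Nexmif, an X-linked intellectual disability gene that acts in neurite extension, had a mean of 0.29 and values from 0.05 to 0.51. L3mbtl3, a reader of methylated histones and proteins, had a mean of 0.39 and values from 0.15 to 0.74. Zfp521, a zinc-finger factor that promotes neural differentiation, had a mean of 0.22, and 5 of 8 knockouts exceeded the highest control. Cit, the citron kinase needed for division of neural progenitors, had a mean of 0.20, but its other 2 probes gave -0.05 and -0.01. Fam133b and LOC434630 had means of 0.25 and 0.33.

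Of the lower genes, Pla2g4b, a cytosolic phospholipase A2, had the smallest p. Its values ran from -0.72 to -0.10 with a median of -0.54 and a mean of -0.50 (SE 0.06, adjusted p = 0.437). Signal was 132 to 187 units in controls and 66.7 to 155 in knockouts, and 6 of 8 knockouts lay below the lowest control. Its other 2 probes gave -0.11 and -0.23, with 6 and 7 of 8 replicates below 0. When replicate 1 was left out the Pla2g4b change was -0.55 with an adjusted p of 0.0218, in a range from 0.0218 to 1 over the same settings.

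Mrps12, a protein of the mitochondrial ribosome, ran from -0.72 to -0.17 with a mean of -0.42 (SE 0.07, adjusted p = 0.733). Its levels overlapped, at 468 to 1053 units in controls and 298 to 847 in knockouts. Gemin7, of the complex that assembles splicing particles, had a mean of -0.21, and Sympk, a scaffold of mRNA 3' end formation, a mean of -0.27, or -0.18 without the arrays of control 1. Metrn, a secreted factor of glia and axon growth, had a mean of -0.22, and its second probe gave -0.27 with 6 of 8 replicates below 0. Spc24, a kinetochore protein, had a mean of -0.26, with 4 of 8 knockouts below the lowest control. H2-T23, a non-classical histocompatibility gene, Telo2, which stabilises DNA damage kinases, Spaca9 and Fam219a had means from -0.19 to -0.12.

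Measured with other probes on the same arrays, the direction was mostly kept but the consistency was not. The share that other genes would give was not computed. Of these 20 genes, 9 had another probe past the filter, 15 probes in all. Of these, 12 pointed the same way as the probe used, and 1, for Ube3a, did so in 8 of 8 replicates.

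At P1, in animals that share no control with the E15 embryos, 12 of the 19 genes with a value pointed the same way as at E15. At an unadjusted p under 0.05, 2 of them did so, Fam133b and Cul5, and 0 pointed the opposite way. Nexmif came close to that limit on the opposite side (limma, unadjusted p = 0.057). It was below 0 in 4 of 4 P1 replicates, with a mean of -0.24 (SE 0.10). Fam133b was above 0 in 4 of 4 P1 replicates, with a mean of 0.18 (SE 0.05, adjusted p = 0.477). Cul5 was above 0 in 3 of 4, with a mean of 0.15 (SE 0.06, adjusted p = 0.533). Ube3a averaged -0.13 (SE 0.14), with 2 of 4 above 0. Over the longer selection, 34 of 48 higher genes with a P1 value were above 0 at P1, against 55.5% of all features, and 7 of 15 lower genes were below 0, against 44.5%.

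The genes with the smallest p at equal surrounding tissue added 6 names. Fam160b1, whose protein belongs to a complex for vesicle transport, had the largest change among the 50 higher genes. It read 173 to 518 units in controls and 410 to 658 in knockouts, with 6 of 8 knockouts above the highest control. Its values ran from 0.35 to 1.80 with a median of 0.68, and its mean was 0.78 (SE 0.15, 1.72-fold, adjusted p = 0.733), or 0.83 (SE 0.13) at equal tissue. The value of 1.80 came from replicate 8, in which knockout 8 read 556 and its partner control 3 read 173, the lowest of the controls. Without replicate 8 and the arrays of control 1 the change was 0.62. At P1 Fam160b1 was above 0 in 4 of 4 replicates, from 0.19 to 0.53, with a mean of 0.37 (SE 0.07, adjusted p = 0.442).

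The other 5 were smaller. Map3k2, a kinase of the MAPK cascade, was 0.36 at equal tissue, and Nnt, the proton-pumping transhydrogenase of mitochondria, was 0.29. Eci1, an enzyme of fatty acid oxidation, was -0.28, Ino80, a chromatin remodeller, was -0.26, and Prr18 was -0.45. Prr18 was below 0 in 8 of 8 E15 replicates and in 3 of 4 at P1.

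Components of the angiotensin system stayed near 0. Of 23 genes measured, 10 were above 0, and the median change was -0.01 against -0.01 over all features. Against 4.10% higher and 2.63% lower over all features, 1 gene, lower in knockout, had an unadjusted p under 0.05. That gene was Thop1, a peptidase that converts angiotensin I to a shorter peptide, with a change of -0.25 (SE 0.09, 6 of 8 below 0, adjusted p = 0.733) and values from -0.76 to 0.02. The receptors Agtr1a and Agtr1b had mean log2 ratios of 0.01 and 0.02, Mas1, the receptor of the shorter peptide, of 0.01, and Agt, the precursor of all angiotensins, of -0.01. Ace, the converting enzyme, was -0.14 (SE 0.09) with values from -0.76 to 0.16.

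Partners and effectors of the type 2 receptor gave a similar picture. Of 27 genes, 16 were above 0, with a median of 0.03, and 0 had an unadjusted p under 0.05 in either direction. Mtus1, which binds the receptor's tail, was -0.15 (SE 0.09). The phosphatase Ptpn6, which the receptor activates, was -0.01, and Ptpn11 was 0.16 (SE 0.12). Dusp1, a MAPK phosphatase, was -0.17 (SE 0.10), and Ube2v2, a ubiquitin-conjugating protein linked to the receptor's action in neurons, was 0.19 (SE 0.12). Erbb3 and Timp3 spread widest, from -1.88 to 1.80 and from -0.64 to 2.03, and both followed the tissue median with R2 of 0.933 and 0.870.

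Of the neuronal lists, those of the synapse, GABA neurons and axon growth had medians slightly above 0. Monoamine neurons and neuropeptides did not, with a median of -0.03 and 15 of 23 genes below 0, nor did intermediate progenitors and newborn neurons, with -0.01 and 11 of 19 below 0. Cortical projection neurons had a median of 0.03, with 13 of 17 above 0, and -0.01 at equal tissue. Over all features, 11202 of 24145 were above 0 and 12943 below. Long genes in general were more often above 0, with 59.9% of features spanning 100 to 300 kb and 68.1% of those over 300 kb. The part of gene length in the neuronal lists and in the X-linked list below was not tested. Of 29 genes of the synapse and transmitter release, 22 were above 0, and 7 were higher and 0 lower at an unadjusted p under 0.05, set against 4.10% and 2.63% of all features. The list's median change was 0.11, and the median over its genes was above 0 in each replicate, from 0.01 in replicate 5 to 0.24 in replicate 4. Syt1, the calcium sensor of vesicle release, had a mean of 0.39 (SE 0.10, 7 of 8 above 0, adjusted p = 0.733) and values from -0.12 to 0.71. Rims1, of the presynaptic active zone, had a mean of 0.22 (SE 0.06), and Gria3, an AMPA glutamate receptor subunit on the X chromosome, 0.18 (SE 0.06). The synapse median was 0.10 at equal tissue, 0.04 without the arrays of control 1 and -0.10 at P1.

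Of 28 GABA neuron genes, 18 were above 0. Against 4.10% and 2.63% of all features, 4 were higher and 0 lower at an unadjusted p under 0.05. They included Gabra2 and Gabra4, subunits of the ionotropic GABA receptor, with means of 0.33 and 0.28. The median of the list was 0.06 in all replicates together but -0.06 in replicates 5 to 8, whose arrays were scanned on other days than those of replicates 1 to 4. Controls 1 and 2 were partners of replicates 1 to 4 only, so scan day and these controls cannot be told apart. Without the arrays of control 1 the median of the list was 0.02.

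X-linked intellectual disability genes had a median of 0.07, with 33 of 44 above 0. Against 4.10% and 2.63% of all features, 6 were higher and 0 lower at an unadjusted p under 0.05. Besides Nexmif these included Pcdh19, an adhesion protein of cortical neurons, at 0.32 (SE 0.08, 7 of 8 above 0), and Phf8, a histone demethylase, at 0.23 (SE 0.07, 8 of 8). Without the arrays of control 1 the Phf8 change was 0.08. The list's median was 0.19 in replicates 1 to 4 and 0.01 in replicates 5 to 8. For axon growth and cytoskeleton the median was 0.11, with Map1b, Kif5c and Ncam1 at 0.30, 0.33 and 0.26. Without the arrays of control 1 these 3 genes gave 0.19, 0.16 and 0.06. The median of the list was -0.00 at equal surrounding tissue and -0.06 in replicates 5 to 8.

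**Figure D4:**
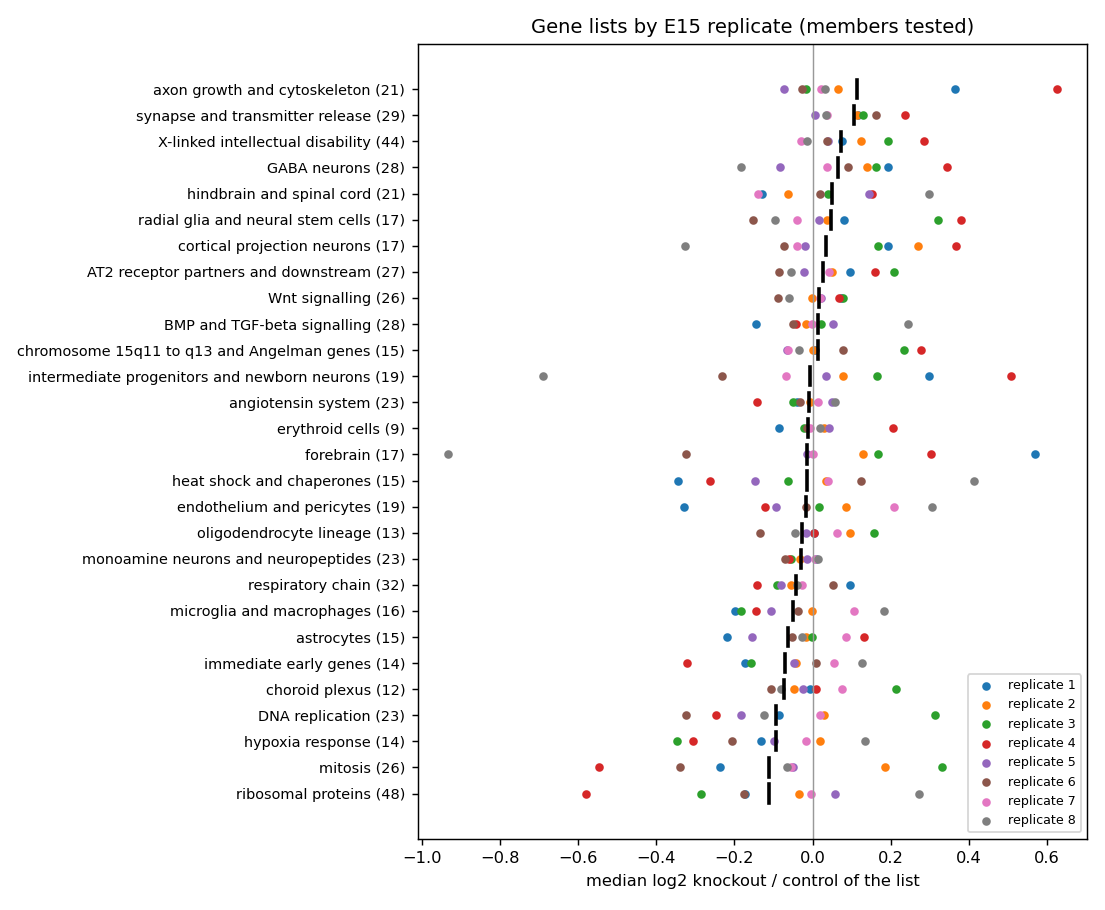
Median log2 knockout over control of gene lists, with a coloured point for each E15 replicate and a black bar for the median of the members' mean changes. The number of members tested stands in parentheses. The meningeal, skeletal muscle, bone and cartilage, skin and epithelium, and sex-linked lists are not drawn. The synapse list is above 0 in each replicate, most other lists straddle 0, and replicates 4 and 8 often lie at opposite ends.

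Genes of cell division and of the ribosome lay slightly below 0. Of 26 mitosis genes, 21 were below 0, with a median of -0.11. At an unadjusted p under 0.05, 4 were lower and 0 higher, against 2.63% and 4.10% of all features. Plk1, a kinase that drives mitotic entry, had a mean of -0.42 (SE 0.09, 7 of 8 below 0, adjusted p = 0.733) and values from -0.73 to 0.04. Cenpa, the histone of centromeres, was -0.30 (SE 0.07) and below 0 in 8 of 8, and 6 of 8 knockouts lay below the lowest control. Cdca8, of the chromosomal passenger complex, was -0.33 (SE 0.09). The median of the list ran from -0.55 in replicate 4 to 0.33 in replicate 3, and it was -0.05 without the arrays of control 1. Of 23 DNA replication genes 21 were below 0, the median was -0.09, and Cdt1, a licensing factor, alone had an unadjusted p under 0.05, at -0.32 (SE 0.14), or -0.20 without the arrays of control 1.

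Of 48 ribosomal protein genes, 40 were below 0, with a median of -0.11. At an unadjusted p under 0.05, 5 were lower and 0 higher, against 2.63% and 4.10% of all features. Rps14, Rps16 and Rpl18 had means of -0.55, -0.33 and -0.44, and Rps16 was -0.14 without the arrays of control 1. Short genes in general were more often below 0: 29.7% of features spanning under 3 kb and 33.4% of those spanning 3 to 10 kb lay above 0, and the part of gene length in this list was not tested. Ribosomal protein genes have many near-identical processed copies, so a probe may read more than its own gene. The median was -0.58 in replicate 4 and 0.27 in replicate 8, -0.06 at equal tissue, and 0.04 in replicates 5 to 8.

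Among lists of other cells, the meningeal list had 20 of 21 genes below 0 and a median of -0.23, and 0 of its genes had an unadjusted p under 0.05. Skeletal muscle had a median of -0.39 with replicates from -3.22 to 2.79. Without the arrays of control 1 these medians were 0.08 and 0.12, and without replicate 8 as well they were -0.28 and -0.19. Forebrain transcription factors ran from -0.93 in replicate 8, which had the highest tissue median, to 0.57 in replicate 1, with a median of -0.01. The cause of this spread was not tested. Of 16 microglia and macrophage genes, 14 were below 0, also at equal tissue, with a median of -0.05. Astrocyte and oligodendrocyte genes pointed both ways at an unadjusted p under 0.05: Glul, which makes glutamine, was 0.20 and the lipid carrier Apoe -0.35, and the myelin genes Mbp and Cnp were 0.23 and -0.17. Without the arrays of control 1 the Mbp value was 0.09. The choroid plexus, erythroid, endothelial, astrocyte and oligodendrocyte lists had medians from -0.07 to -0.01, and their part in the other results was not tested.

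Among sex-linked genes, Xist, expressed from the inactive X of females, ran from -0.13 to 0.30, and the Y-linked Ddx3y from -0.50 to 0.21. Eif2s3y, on the Y chromosome as well, ran from -0.12 to 0.83.

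The knockout change was also compared directly between the ages. Of 21348 features measured at both, 0 differed at an adjusted p of 0.05 (0%), and 904 (4.23%) did at an unadjusted p under 0.05. In P1 minus E15, Nexmif gave -0.53 (SE 0.11), Syt1 -0.61 (SE 0.16) and Ube3a -0.50 (SE 0.14), with an adjusted p of 0.976 each. For these 3 genes the E15 values had been used to choose them.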

How the data were processed

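Per the labels, total RNA of frozen whole-brain slices was DNase-treated, linearly amplified and labelled with Cy3 or Cy5. The scanner files, as deposited, hold per the file headers spot mean and local background median intensity, and processed signals with their log10 ratio (red over green). The deposited matrix repeats these log10 ratios within 0.005.

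Mean intensities were background-corrected (normexp, offset 50) and loess-normalized within arrays, with control spots given no weight and outlier spots removed. Probes were named through accession (21570), symbol (5358) or synonym (4597) in a RefSeq table of GRCm38.p6, or by the file (1922); 7727 stayed unnamed. A gene was read by its brightest probe over all 22 arrays and needed at least 6 of 8 values. Fits used limma 3.58.1 in R 4.3.3 (statmod 1.5.0), with duplicateCorrelation for shared controls (0.0432; 0.208 at equal tissue) and Benjamini-Hochberg adjustment at 0.05. Animal levels came from channels separated after Aquantile normalization, with terms for animal and dye but none for the array. Differences between arrays therefore enter them, so overlap or separation of the groups in these levels is a description. Scripts were tested on simulated data. Figures used matplotlib 3.10.9.

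Genes were named by a rule: 10 per direction with 1 sign in 8 of 8 replicates and p under 0.01 at equal tissue, Agtr2, up to 3 list members per direction at p under 0.05, the 10 largest SDs, and up to 5 per direction at equal tissue. The 33 lists, the rule and the tests were chosen with earlier results of these data known. P values measure the spread between these samples. Lists received no test.

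Replicate numbers at E15 and P1 name different animals; pairing comes from the array alone. Precision is limited by the number of arrays. Results for some list members are not reported here.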

Additional observations from a re-analysis of the deposited data

Results flagged for a closer look

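Of 114 sets of animals or replicates examined for a value far from the others, 8 had one, and chance alone marks about 5% of sets. Each is given with the gap to the nearest value as a share of the whole range. In the knockout changes, Rps14 was -1.85 in replicate 3 against -0.78 to 0.11 elsewhere (0.546), and Fam160b1 was 1.80 in replicate 8 against 0.35 to 1.02 (0.533). The bone and cartilage list had a median of 1.94 in replicate 8 against -0.50 to 0.07 (0.767). The erythroid list had a median of 0.21 in replicate 4 against -0.08 to 0.04 (0.559).

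In the log2 levels of single animals, the meningeal list was 9.64 in knockout 8 against 7.29 to 8.1 in the other knockouts (0.652). Skeletal muscle was 9.71 in knockout 8 against 6.46 to 7.75 (0.602), and 11.4 in control 1 against 6.37 to 8.04 in the other controls (0.667). Agtr2 was 9.20 in control 1 against 6.11 to 6.98 in the other controls (0.720). These 4 levels belong to the 2 animals richest in connective tissue and muscle.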

How the results depend on the processing

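The count of features called, 0 in each of the 3 fits, was recomputed under other processing choices, and the cause of each change below was not tested. It became 1 with the scanner's processed signals and 1 with the deposited matrix, in the E15 fit and at equal tissue alike, and the feature was Bmp2k. Leaving out single replicates gave 0 to 1 calls in the E15 fit, 1 only without replicate 1 (Pla2g4b), and 0 at equal tissue and for P1 minus E15. An array-level fit with dye as a coefficient and the knockout replicate as a replicate block gave 1 call in the E15 fit (Bmp2k, 0.54, adjusted p = 0.0386) and 2 at equal tissue (Bmp2k and Fam160b1). No other alternative gave a call. The Agtr2 change reversed to 0.156 in the 4 replicates of scan days 1 and 2 and to 0.0572 without the arrays of control 1, but was -0.0782 when replicate 8 was left out as well (both added after the data were seen); without single replicates it ran from -0.556 to -0.164. Features at an unadjusted p under 0.05, 1627, numbered 4142 within scan day 3, 926 without replicates 3 and 4, 231 with channels separated and 1073 without control 1 and replicate 8. Among the genes recomputed, those named by p, Agtr2 alone changed direction; for genes chosen with 1 sign in 8 of 8 replicates the choice largely fixes this. Genes named for their spread, Prdm16 and the other members of the angiotensin lists were not recomputed. P1 minus E15 was not computed for the array-level, channel, weighted, scan-day and mean-probe settings, and no correlation could be estimated for 1 fit of 4 replicates. Signal over background limits dim probes, whose ratios the offset draws toward 0.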

Other observations

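Changes at E15 differed with the length of the gene. Spans were taken from the RefSeq table for 93.9% of named features, whose median was 19.5 kb. For 2101 features under 3 kb the median change was -0.03 and 29.7% lay above 0, and for 504 features over 300 kb it was 0.04 with 68.1% above 0. Between these bins the median was -0.03 at 3 to 10 kb, -0.01 at 10 to 30 kb, 0.01 at 30 to 100 kb and 0.02 at 100 to 300 kb. Among the 10 higher genes named first, the 9 with a span had a median of 102 kb, and the 10 lower genes 7.98 kb. Across genes, which are not independent replicates, the Spearman correlation of change with span was 0.26 for the mean and ran from -0.03 to 0.20 over replicates, above 0 in 6 of 8. At P1 the medians of the shortest and longest bins were 0.01 and 0.00.

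Arrays of 1 knockout embryo in opposite dyes correlated, after dye correction, at 0.83 in replicate 8 and 0.71 in replicate 6, and at 0.18 to 0.28 in replicates 1, 2, 5 and 7. Replicates 1 and 2 had different controls on their arrays.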
